A study of Mus musculus with 8 samples.

Results

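The genes of the proteasome were followed across 4 groups of mouse kidneys, chosen by their symbols and not by any measured change. They were the genes whose symbol starts with Psm, a letter from a to g and a number. Each was represented by its brightest probe that was not a control, and was kept if at least 1 group had that probe well above background on its 2 arrays. The rule matched 50 symbols and 49 passed. Psmb11, a subunit of the thymus, did not: its 2 probes were above background on 0 of 8 arrays. Psmc3ip and Psme3ip1 carry the prefix as partners of proteasome proteins and are no subunits, which left 47 genes among the 20677 genes tested. They comprised 8 alpha and 7 beta subunits of the 20S core, 5 genes of the immunoproteasome, 9 subunits of the base and 8 of the lid of the 19S cap, 3 other activators or inhibitors, and 7 assembly chaperones. All 47 probes stood well above background on all 8 arrays.

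Messenger RNA came from kidneys of male mice aged 16 weeks, with 2 arrays in each group. Kidneys were wild type (WT) or carried a knockdown (KD) of Keap1, whose product is the adaptor that marks the transcription factor NRF2 for degradation. Injured kidneys (IRI, ischemia-reperfusion injury) were left kidneys whose vein and artery had been clamped for 45 min, taken at day 1; normal left kidneys were not clamped. The labels do not say how the knockdown was made, in which kidney cells it acts, or whether the arrays come from separate animals, and p-values then measure only the spread between these samples, which may be technical. In whole kidney, fewer cells of a type and less RNA per cell cannot be told apart.

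The proteasome degrades proteins that carry chains of ubiquitin. Its 20S core is a barrel of alpha and beta rings, and 3 of the beta subunits, Psmb5, Psmb6 and Psmb7, cut the substrate. The 19S cap recognises, deubiquitinates and unfolds the substrate: its base holds the ATPases, and its lid holds the deubiquitinase Psmd14. Interferon can replace the 3 catalytic subunits by Psmb8, Psmb9 and Psmb10, and with the PA28 activator of Psme1 and Psme2 this immunoproteasome favours peptides for presentation on MHC class I. Genes of the core and cap are known targets of the transcription factors NRF1 (Nfe2l1) and NRF2.

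Values below are log2 signals relative to the 75th percentile of the array, listed as replicate 1 and then replicate 2 of a group. Levels of different probes cannot be compared with each other. Changes are differences of group means on that log2 scale ± the standard error (SE) from limma, with Benjamini-Hochberg adjusted p over all genes tested, and a gene was called at an adjusted p under 0.05. Keap1 itself was at 2.75 and 2.66 on the WT normal arrays and at 1.50 and 1.40 on KD normal, then at 2.66 and 2.50 on WT IRI and at 1.33 and 1.04 on KD IRI. The KD arrays lay below the WT arrays in both states, as labelled (-1.25 ± 0.12, limma adjusted p = 0.0041, and -1.39 ± 0.12, adjusted p = 0.0056). All 6 NRF2 targets listed for comparison were called higher in KD than in WT in both states, beside 6.33% of all genes in normal and 3.66% in injured kidneys. Markers of proximal tubule, the main epithelium of the kidney cortex, were present, and their summed linear level over 8 genes was 758 to 853 in normal and 268 to 392 in injured kidneys. In KD normal against WT normal 0 of these 8 were called. There 2 of 4 loop and distal tubule and 2 of 4 collecting duct markers were called lower (8.75% of all genes). Called higher were 1 of 3 podocyte and 1 of 4 tubule injury markers (6.33% of all genes), and 0 of 3 endothelium markers were called.

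The promoters of 2 constitutive catalytic subunits and of their inducible counterparts are shown because the results on the inducible subunits turn on such pairs. The third pair is not shown: Psmb7 has no promoter window, and the 250 bases of Psmb10 held 0 matches to the searched motifs. Each is the 250 bases before the annotated start in RefSeq (GRCm38.p6), 5′ to 3′ on the strand of the gene, with the match to a searched motif in capitals. The windows lie at chr14:54617996-54618245 (minus strand) for Psmb5, chr17:34197945-34198194 (plus) for Psmb8, chr11:70525107-70525356 (plus) for Psmb6 and chr17:34187331-34187580 (minus) for Psmb9.
Psmb5: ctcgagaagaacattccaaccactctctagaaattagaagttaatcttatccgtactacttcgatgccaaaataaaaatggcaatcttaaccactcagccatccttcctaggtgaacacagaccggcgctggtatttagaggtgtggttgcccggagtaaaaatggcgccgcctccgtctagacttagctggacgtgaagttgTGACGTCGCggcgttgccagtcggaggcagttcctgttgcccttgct
Psmb8: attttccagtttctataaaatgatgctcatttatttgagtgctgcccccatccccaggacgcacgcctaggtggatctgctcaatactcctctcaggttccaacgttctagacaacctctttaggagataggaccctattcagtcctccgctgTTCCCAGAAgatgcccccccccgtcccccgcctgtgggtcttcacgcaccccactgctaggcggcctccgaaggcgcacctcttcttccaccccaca
Psmb6: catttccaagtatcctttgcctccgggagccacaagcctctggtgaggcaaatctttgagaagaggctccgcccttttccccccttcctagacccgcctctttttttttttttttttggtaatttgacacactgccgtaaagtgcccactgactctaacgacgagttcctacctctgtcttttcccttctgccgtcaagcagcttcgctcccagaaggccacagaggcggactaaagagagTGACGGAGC
Psmb9: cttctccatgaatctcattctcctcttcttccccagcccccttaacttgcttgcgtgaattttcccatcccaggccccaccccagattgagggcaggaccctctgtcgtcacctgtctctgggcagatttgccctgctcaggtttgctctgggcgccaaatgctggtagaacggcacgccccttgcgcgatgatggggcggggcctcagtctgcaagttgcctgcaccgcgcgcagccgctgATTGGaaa
In Psmb5 and Psmb6 the capitals mark TGACNNNGC, the core of the antioxidant response element, 47 and 9 bases before the start. In Psmb8 they mark TTCNNNGAA, the palindrome of the gamma-activated site, 97 bases before the start, and in Psmb9 a CCAAT box on the opposite strand, 8 bases before it. Psmb9 lies next to Tap1, and the order of genes on chromosome 17 is Psmb9, Tap1, Psmb8 and Tap2. On chromosome 14 only Emc9 lies between Psme1 and Psme2.

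Promoter windows of 300 bases, reaching 50 bases past the start, were present for 39 of the 47 genes (42 windows), and 4 motifs were searched on both strands. TGACNNNGC was found in 14.3% of the proteasome windows and in 12.4% of all 32851 windows. Its members were Psmb5, Psmb6, Psmc6, Psmd12, Psmd9 and Psme4. A form of the interferon-stimulated response element (GAAA, any 2 bases, GAAA) was found in 11.9% of the proteasome windows against 3.44% of all: those of Psmb3, Psmd4, Psmd9, Psme1 and Psmg4, of which Psme1 alone is a gene of the immunoproteasome. CCAAT was found in 31.0% against 37.4%, with 5 of its 13 windows among the 8 of alpha subunits. TTCNNNGAA was found in 7.14% against 8.3%, in Psmb8, Psmd2 and Psmg1. A match describes the letters of the window and is not evidence of binding.

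After injury of WT kidneys, 14 of the 47 proteasome genes rose and 2 fell, while 20.5% of all genes were called higher and 25.4% lower. The median change of the 47 was 0.17, against -0.084 over all genes tested. Leaving out WT normal replicate 1 or 2 left 3 genes called higher, leaving out WT IRI replicate 2 left 5, and leaving out either KD IRI array left 8. Background correction by normexp left 1 higher call, Psmb10, and 2 lower ones, and quantile normalization gave 33 higher and 1 lower.

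After injury of KD kidneys, 22 of the 47 rose and 2 fell, beside 27.4% and 32% of all genes, and the median was 0.21 against -0.084. Quantile normalization gave 33 higher calls and normexp 16. Of the 22, 11 stayed past the threshold whichever array was left out. Both sets of injured arrays were compared with their own normal arrays, and the difference between the injury responses was called for 2 genes, Psmb9 and Psmb10, both in the immunoproteasome and both higher (3.72% of all genes were called higher and 2.73% lower in that test).

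In normal kidneys, KD differed from WT in 8 proteasome genes: 4 rose and 4 fell, beside 6.33% and 8.75% of all genes. All 4 that fell were genes of the immunoproteasome. The 4 that rose were Psmc2, Psmd11, Psme4 and Psmd5, none of them in the core. The 4 higher calls became 2 under quantile normalization and 6 with arrays centred on the median of all genes, with 4 lower calls in each, and normexp gave 1 higher and 3 lower. None of the 8 calls held in all 8 fits that left out 1 array.

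In injured kidneys, 3 genes were higher in KD than in WT and 0 were lower, beside 3.66% and 3.37% of all genes. They were Psmd12, Psmg2 and Psmd5. The changes of 42 of the 47 lay above 0, with a median of 0.16, whereas 44.3% of all genes lay above 0 with a median of -0.043. Within the 2 slides, each of which held 1 array of every group, this median was 0.21 and 0.11. At an unadjusted limma p under 0.05, 18 of the 47 proteasome genes were higher and 0 lower, beside 12.7% and 14.1% of all genes. The 3 calls became 0 without WT normal replicate 1 or 2, or without either KD IRI array, and 1 without WT IRI replicate 1 or without either KD normal array.

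**Figure D1:**
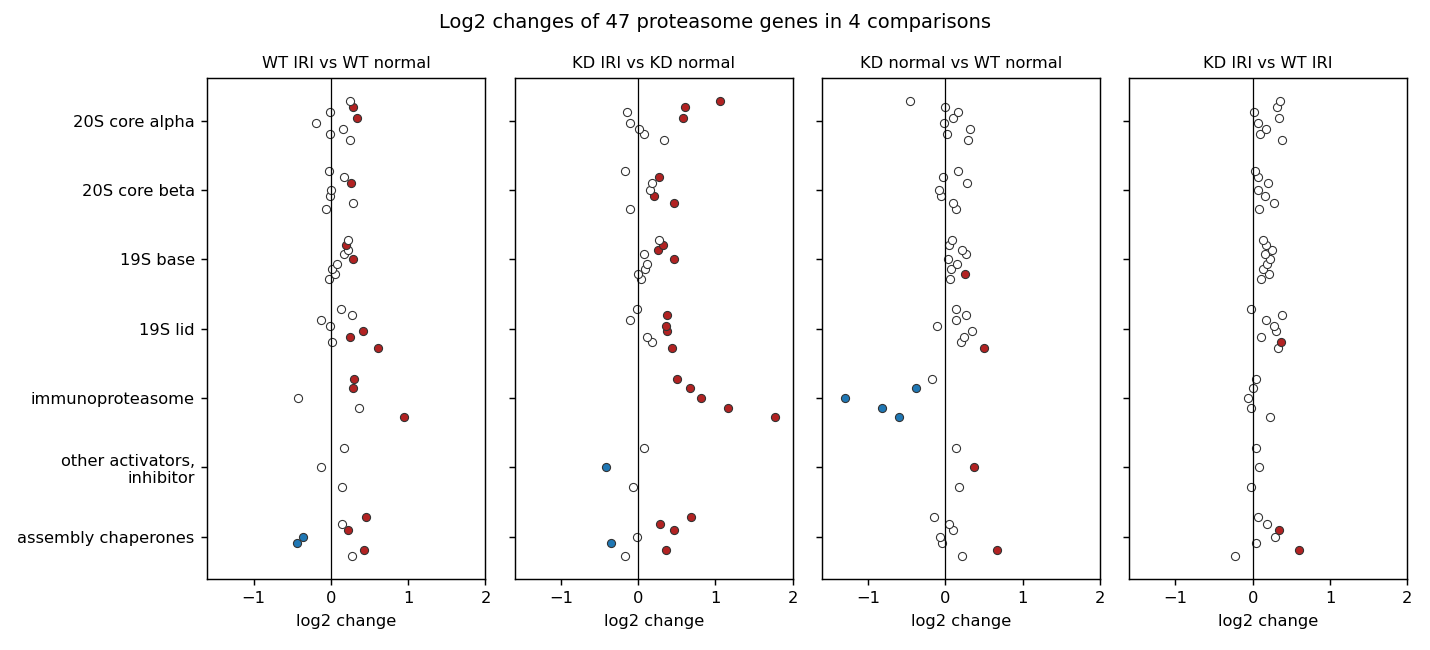
Log2 changes of the 47 proteasome genes in 4 comparisons, with each gene as a point in the row of its role. Red points were called higher and blue points lower (limma, adjusted p under 0.05), and open points were not called. The 5 immunoproteasome genes spread from -1.30 to -0.17 in KD normal against WT normal and from 0.51 to 1.77 in KD IRI against KD normal.

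The largest fall and the largest rise of a proteasome gene in the 4 comparisons, of Psmb9 and Psmb10, were both in the immunoproteasome. In normal kidneys all 5 of its genes had lower means in KD than in WT, whereas 46.8% of all genes had a higher mean. Of the 5, 4 fell, beside 8.75% of all genes called lower. In injured kidneys 0 of the 5 were called between genotypes, with changes from -0.06 to 0.23 (3.66% of all genes were called higher and 3.37% lower). After injury of KD kidneys all 5 rose, beside 27.4% of all genes. Psmb9, the inducible counterpart of Psmb6, was at 1.10 and 0.97 on the WT normal arrays and at -0.09 and -0.45 on KD normal. It was at 0.85 and 0.36 on WT IRI and at 0.42 and 0.68 on KD IRI. The KD normal arrays thus stood below all 6 others, 2.47-fold below WT normal (-1.30 ± 0.19, limma adjusted p = 0.0102). The injured groups overlapped each other and both lay below WT normal. Psmb9 was the only immunoproteasome gene whose mean was lower after injury in WT (-0.43 ± 0.19, adjusted p = 0.11, not called), and it rose after injury in KD (0.82 ± 0.19, adjusted p = 0.00948).

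Psmb8, the counterpart of Psmb5, was at 1.44 and 1.22 on the WT normal arrays, 0.63 and 0.38 on KD normal, 1.81 and 1.56 on WT IRI, and 1.58 and 1.74 on KD IRI. Here too the KD normal arrays were the lowest of the 8, and the injured groups overlapped. It fell in KD normal (-0.82 ± 0.14, limma adjusted p = 0.0141) and rose after injury of KD kidneys (1.16 ± 0.14, adjusted p = 0.000423). Its change after injury of WT kidneys was 0.36 ± 0.14 and was not called (adjusted p = 0.0685).

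Psmb10, the counterpart of Psmb7, was at 2.42 and 2.41 on the WT normal arrays and at 1.89 and 1.74 on KD normal. It was at 3.45 and 3.26 on WT IRI and at 3.52 and 3.65 on KD IRI. The 4 groups did not overlap, and injury raised it in both genotypes. It rose in WT (0.94 ± 0.10, limma adjusted p = 0.000501) and, by 3.41-fold, in KD (1.77 ± 0.10, adjusted p = 2.75e-05), and both calls held whichever array was left out. In normal kidneys it fell in KD (-0.60 ± 0.10, adjusted p = 0.0127).

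Psme1 and Psme2 encode the alpha and beta chains of PA28, a ring that opens the core without the cap. Psme1 was at 3.46 and 3.49 on the WT normal arrays, 3.11 and 3.08 on KD normal, 3.64 and 3.87 on WT IRI, and 3.73 and 3.80 on KD IRI. Psme2 was at 4.95 and 4.90, 4.81 and 4.70, 5.26 and 5.19, and 5.29 and 5.24 in the same order. For both genes KD normal was lowest and the injured groups were highest and overlapped. Psme1 fell in KD normal (-0.38 ± 0.09, limma adjusted p = 0.0359), and the change of Psme2 was -0.17 ± 0.07 (adjusted p = 0.147). Both rose after injury, by 0.28 and 0.30 in WT and by 0.67 and 0.51 in KD. A near copy of Psme2, Psme2b, had no probe, and whether the Psme2 probe also binds it was not tested.

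For the 4 genes that fell in KD normal, both KD arrays lay below both WT arrays, so the sign within each slide was fixed. The slides therefore show only the size. The changes were -1.19 and -1.42 for Psmb9, -0.81 and -0.83 for Psmb8, -0.53 and -0.68 for Psmb10 and -0.35 and -0.41 for Psme1. The calls rested on few arrays. Leaving out either WT normal array left 0 of the 4 called, and leaving out KD normal replicate 2 left 1. The highest adjusted p over these fits was 0.075 for Psmb9, 0.0956 for Psmb8, 0.0875 for Psmb10 and 0.172 for Psme1.

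The injury response of KD less the one of WT was 1.25 ± 0.27 for Psmb9 (limma adjusted p = 0.0472) and 0.83 ± 0.14 for Psmb10 (adjusted p = 0.0265). It was 0.79 for Psmb8 and did not pass (adjusted p = 0.061). Within the slides the difference was 0.76 and 1.74 for Psmb9 and 0.59 and 1.06 for Psmb10. Both calls were lost in the deposited log2 values, without the intensity trend, and without either WT normal array, either KD IRI array or KD normal replicate 2. The same quantity is KD minus WT in injured kidneys less KD minus WT in normal ones. In injured kidneys KD minus WT was -0.06 ± 0.19 for Psmb9 and 0.23 ± 0.10 for Psmb10, neither of them called, beside -1.30 and -0.60 in normal kidneys.

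**Figure D2:**
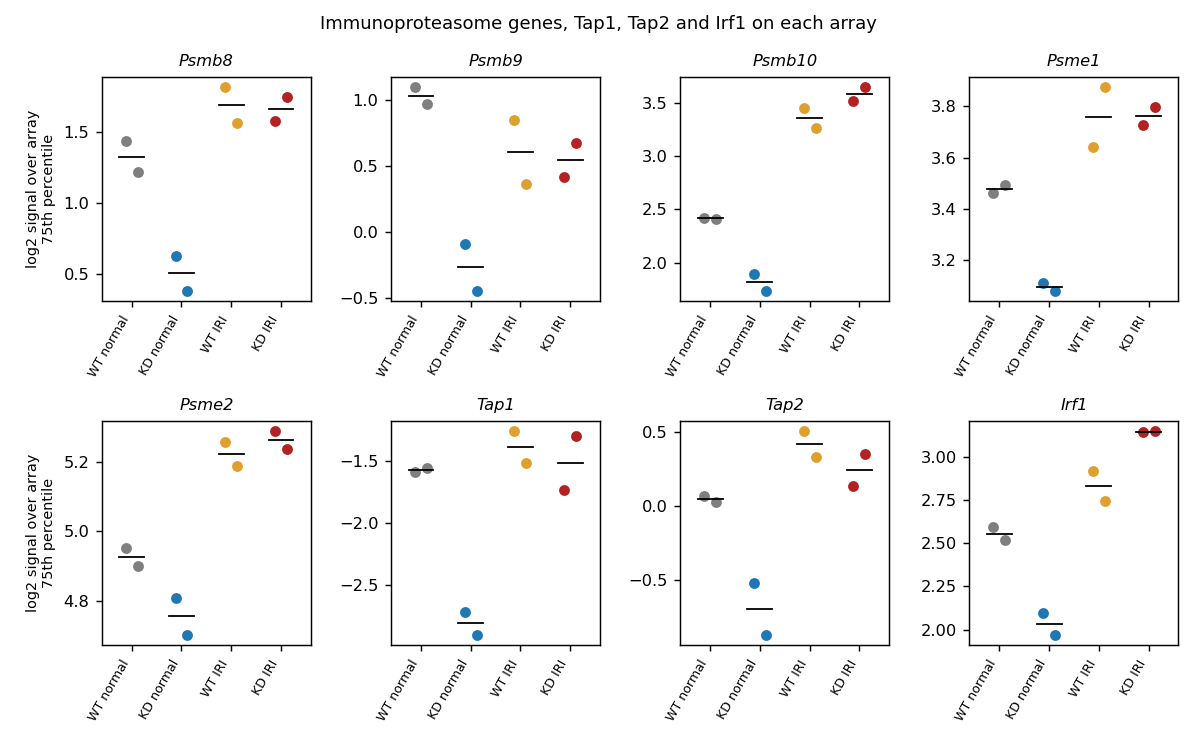
Log2 signal relative to the 75th percentile of the array for the 5 immunoproteasome genes and for Tap1, Tap2 and Irf1, each dot an array and each line the mean of the 2 arrays of a group. The y axes differ between panels. In every panel both KD normal arrays lie below the other 6. Over all genes, 34.5% had both KD normal arrays below both WT normal arrays, and the share below all 6 was not counted. Of the measured class I genes, Ifngr1, H2-D1 and B2m do not have this order.

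Other genes of class I antigen presentation were measured beside them. Of 13 listed genes 11 were measured, and 6 fell and 0 rose in KD normal against WT normal, beside 8.75% of all genes called lower and 6.33% called higher. Tap1 and Tap2, the peptide transporter encoded between and beside Psmb9 and Psmb8, changed by -1.24 and -0.74 (limma adjusted p = 0.009 and 0.02). In KD IRI against KD normal 7 rose and 0 fell (27.4% and 32% of all genes), with Tap1 at 1.29 ± 0.17 and the interferon regulatory factor Irf1 at 1.11 ± 0.09. In WT IRI against WT normal 4 rose and 0 fell (20.5% and 25.4% of all genes), with the trimming peptidase Erap1 at 0.72 ± 0.10, and in KD IRI against WT IRI 0 were called in either direction (3.66% and 3.37% of all genes). Nlrc5, a driver of class I genes, and Ifng, which encodes interferon gamma, were each above background on at most 1 array and were not kept.

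Leukocytes carry the immunoproteasome, and their markers moved between the groups too. Of 22 listed markers 17 were measured. Their summed linear level, in multiples of the 75th percentile of the array, was 13.5 to 14.0 on the WT normal arrays, 11.1 to 17.4 on the KD normal arrays, 58.1 to 108 on WT IRI and 60.2 to 68.2 on KD IRI. The neutrophil genes S100a8 and S100a9 carried the rise of this sum with injury and its overlap between the normal groups. Without them, a choice made after seeing the data, the other 15 markers summed to 13.3 to 13.8 on the WT normal arrays and to 10.4 to 11.5 on KD normal. After injury they summed to 9.94 to 11.03 in WT and to 9.31 to 11.7 in KD. Such a sum follows its brightest gene and not each marker. The brightest of the 15 was Cd74, at 2.93 and 2.97 on WT normal and 2.51 and 2.65 on KD normal. It was at 2.24 and 2.16 on WT IRI and 1.63 and 1.77 on KD IRI. Ptprc moved the other way, from -1.09 and -1.10 on WT normal to -0.95 and -1.02 on KD normal. It was at 0.08 and -0.01 on WT IRI and 0.03 and 0.47 on KD IRI. Of the 17 markers 0 rose and 3 fell in KD normal against WT normal, Cd8a, Cd79b and Cd74, beside 6.33% and 8.75% of all genes. The changes of 10 of the 17 lay below 0 and those of 7 above it, Ptprc, Itgb2 and Lyz2 among these. The share above 0 was 41.2%, beside 46.8% of all genes. The median was -0.31 against -0.027 over all genes. After injury 7 rose and 6 fell in WT, beside 20.5% and 25.4% of all genes, and 9 rose and 4 fell in KD, beside 27.4% and 32%. Cd3e, Cd4 and Cd79a did not pass the filter, and Cd68 and Ly6g had no probe. The part of leukocytes in the immunoproteasome values was not tested.

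The balance of inducible and constitutive catalytic subunits was read as the difference of their log2 signals within an array, which no scaling of the array changes. Psmb8 minus Psmb5 had means of -2.94 on the WT normal arrays, -4.04 on KD normal, -2.84 on WT IRI and -3.07 on KD IRI. Psmb9 minus Psmb6 had means of -3.80, -5.08, -4.41 and -4.53 in the same order. Psmb10 minus Psmb7 had means of -0.36, -1.13, 0.61 and 0.81. For all 3 pairs KD normal was lowest and did not overlap any other group.

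With 4 arrays against 4, Psmb10 minus Psmb7 was 1.45 higher in injured than in normal kidneys. The exact two-sided permutation test gave p = 0.0286, the smallest that 70 splits allow, and 0.171 after adjustment over the 6 tests of the pairs. The same difference was 0.54 for Psmb8 minus Psmb5 (exact permutation p = 0.257) and -0.027 for Psmb9 minus Psmb6 (p = 0.971). Quantile normalization is more than a scaling of the array and did change these values. Under it the differences were 1.47 for the pair of Psmb10, 0.27 for that of Psmb8 and -0.35 for that of Psmb9. KD minus WT was -0.66, -0.70 and -0.29 for the pairs of Psmb8, Psmb9 and Psmb10 (exact permutation p = 0.0857, 0.0571 and 0.629). With this number of arrays the adjusted p of these 6 tests cannot go below 0.0571, since injury and genotype cannot both be the most extreme split of a pair. The adjusted values are therefore given as a description, and the lowest was 0.171.

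**Figure D3:**
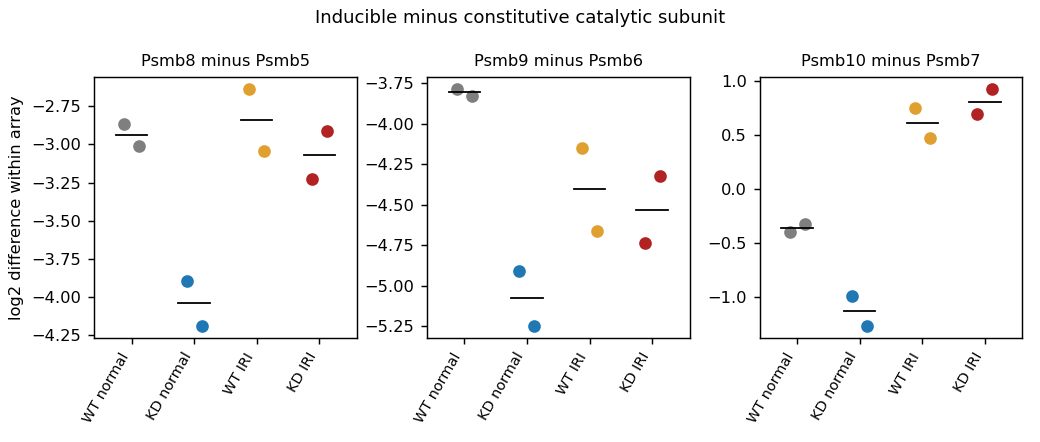
Inducible minus constitutive catalytic subunit as a log2 difference within each array, for 3 pairs, each dot an array and each line the mean of the 2 arrays of a group. The y axes differ between panels, and the height has no meaning across pairs because the probes differ. Psmb10 minus Psmb7 is below 0 on all 4 normal arrays and above 0 on all 4 injured ones.

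The constitutive catalytic subunits moved less. Psmb5, which carries the chymotrypsin-like activity, was at 4.30 and 4.23 on the WT normal arrays, 4.52 and 4.57 on KD normal, 4.45 and 4.61 on WT IRI, and 4.80 and 4.65 on KD IRI. WT normal was lowest and KD IRI highest, with the other groups overlapping between them. It rose after injury of WT kidneys (0.26 ± 0.09, limma adjusted p = 0.0434, and 0.0508 with the replicate number, which is the slide, as a block). In KD normal against WT normal it was 0.28 ± 0.09 higher and not called (adjusted p = 0.0729).

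Psmb6, which carries the caspase-like activity, was at 4.88 and 4.80 on the WT normal arrays, 4.82 and 4.80 on KD normal, 4.99 and 5.02 on WT IRI, and 5.16 and 5.0 on KD IRI. It rose after injury of KD kidneys (0.27 ± 0.08, limma adjusted p = 0.02), and the WT arrays changed by 0.17 ± 0.08 (adjusted p = 0.11). Psmb7, which carries the trypsin-like activity, was at 2.82 and 2.73, 2.88 and 3.0, 2.70 and 2.80, and 2.83 and 2.73 in the order of groups used for Psmb6. Psmb7 was called in none of the 4 comparisons.

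Among the structural subunits of the core, Psma5 and Psma7 rose after injury in both genotypes. Psma7 was at 4.69 and 4.68 on the WT normal arrays, 4.73 and 4.63 on KD normal, 4.90 and 5.04 on WT IRI, and 5.31 and 5.27 on KD IRI. The normal groups overlapped, WT IRI lay above them and KD IRI above WT IRI. Its change was 0.28 ± 0.08 after injury in WT (limma adjusted p = 0.0224) and 0.61 ± 0.08 in KD (adjusted p = 0.000561). KD IRI minus WT IRI was 0.32 ± 0.08 and did not pass (adjusted p = 0.0571).

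Psma5 was at 4.69 and 4.63, 4.82 and 4.70, 4.90 and 5.10, and 5.41 and 5.27 in the same order of groups, and no group overlapped another. It rose by 0.34 in WT and by 0.58 in KD after injury (limma adjusted p = 0.0244 and 0.00173). The largest change of an alpha subunit that was not called after injury was that of Psma1, at 0.25 in WT and 0.34 in KD. Of the beta subunits, Psmb2 rose by 0.46 ± 0.11 in KD IRI against KD normal (adjusted p = 0.0108), and Psmb3 also rose there. In KD against WT, 0 of the 8 alpha and 0 of the 7 beta subunits were called in either state. Of all genes, 6.33% were called higher and 8.75% lower in normal kidneys, and 3.66% and 3.37% in injured ones. Changes lay above 0 for all 8 alpha and all 7 beta subunits in injured kidneys, beside 44.3% of all genes. In normal kidneys they did so for 5 alpha and 4 beta subunits, beside 46.8% of all genes.

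Psma8, the alpha subunit of the testis proteasome, was dim: its 8 arrays lay between -4.87 and -3.37. It was at -4.87 and -4.80 on KD normal and at -4.19 and -3.37 on KD IRI, and it was called higher (1.06 ± 0.28, limma adjusted p = 0.0141). Under normexp background correction that change was -0.47, with the sign turned. Counts of the constitutive core and cap are therefore given below without it.

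The 19S base holds 6 ATPases, Psmc1 to Psmc6, that unfold the substrate, and the scaffold subunits Psmd1 and Psmd2 with the ubiquitin receptor Psmd4. Psmc5 was at 2.80 and 2.73 on the WT normal arrays, 2.72 and 2.89 on KD normal, 2.96 and 3.13 on WT IRI, and 3.27 and 3.27 on KD IRI. Its normal groups overlapped and its injured groups lay above them, KD highest. It rose in WT (0.28 ± 0.09, limma adjusted p = 0.0442) and in KD (0.47 ± 0.09, adjusted p = 0.00428). Psmd2 rose by 0.20 and 0.32 in the same comparisons, and Psmd1 rose by 0.26 in KD. Psmc2 was the base subunit called between genotypes: it was at 4.38 and 4.37 on the WT normal arrays and at 4.61 and 4.64 on KD normal (0.25 ± 0.06, adjusted p = 0.0423). In injured kidneys it was at 4.40 and 4.44 in WT and at 4.66 and 4.60 in KD, again without overlap, and was not called (adjusted p = 0.0983).

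Psmd11, a scaffold subunit of the lid known to limit the assembly of capped proteasomes in stem cells, moved most among the cap genes. It was at 4.28 and 4.16 on the WT normal arrays, 4.77 and 4.68 on KD normal, 4.70 and 4.97 on WT IRI, and 5.21 and 5.12 on KD IRI. WT normal was lowest, KD IRI was highest, and KD normal overlapped WT IRI. It rose after injury in WT (0.61 ± 0.10, limma adjusted p = 0.00344) and in KD (0.44 ± 0.10, adjusted p = 0.00929). It also rose with the knockdown in normal kidneys (0.50 ± 0.10, adjusted p = 0.0248), and the change in injured kidneys was 0.33 ± 0.10 (adjusted p = 0.101). These comparisons share arrays.

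Psmd14, the deubiquitinase of the lid, was at 3.24 and 3.22 on the WT normal arrays, 3.47 and 3.67 on KD normal, 3.57 and 3.73 on WT IRI, and 4.0 and 3.89 on KD IRI. The order of the groups was that of Psmd11. It rose after injury by 0.42 ± 0.10 in WT (limma adjusted p = 0.0114) and by 0.38 ± 0.10 in KD (adjusted p = 0.0126). Its change in KD normal was 0.34 ± 0.10 and was not called (adjusted p = 0.0564).

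Psmd12, another scaffold subunit of the lid, was the core or cap gene called in injured kidneys between genotypes. It was at 4.12 and 4.03 on the WT normal arrays, 4.27 and 4.30 on KD normal, 4.01 and 4.18 on WT IRI, and 4.49 and 4.42 on KD IRI. The KD arrays lay above the WT arrays in both states, and the WT groups overlapped. The change was 0.36 ± 0.08 in injured kidneys (limma adjusted p = 0.0458, and 0.0515 with the slide as a block). Psmd3 and Psmd7 rose after injury in KD, by 0.36 and 0.37, and Psmd13 rose after injury in WT, by 0.25.

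Taking the 31 constitutive core and cap genes without Psma8, 8 (25.8%) rose and 0 fell after injury in WT, and 12 (38.7%) rose and 0 fell after injury in KD, beside 20.5% and 27.4% of all genes called higher and 25.4% and 32% called lower. Between genotypes 2 (6.45%) rose in normal kidneys, Psmc2 and Psmd11, and 1 (3.23%) in injured kidneys, Psmd12. Those shares were close to the 6.33% and 3.66% of all genes called higher, and 0 fell in either state, beside 8.75% and 3.37% of all genes. Their medians were 0.16 and 0.18 after injury in WT and KD, and 0.13 and 0.17 for KD against WT in normal and injured kidneys. Changes lay above 0 for 22, 24, 25 and 30 of the 31 in that order of comparisons. The shares of all genes tested above 0 were 44.0%, 45.5%, 46.8% and 44.3%. The changes were small: the largest in these 4 comparisons was the 0.61 of Psmd11 in WT and of Psma7 in KD, both after injury. Over all genes tested, normexp moved the median to 0.20 after injury in WT, -0.35 after injury in KD, and 0.15 and -0.23 for KD against WT in normal and injured kidneys. In the same order the median of the 47 proteasome genes was 0.029, 0.34, -0.021 and 0.29 under normexp, so its sign turned in normal kidneys.

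**Figure D4:**
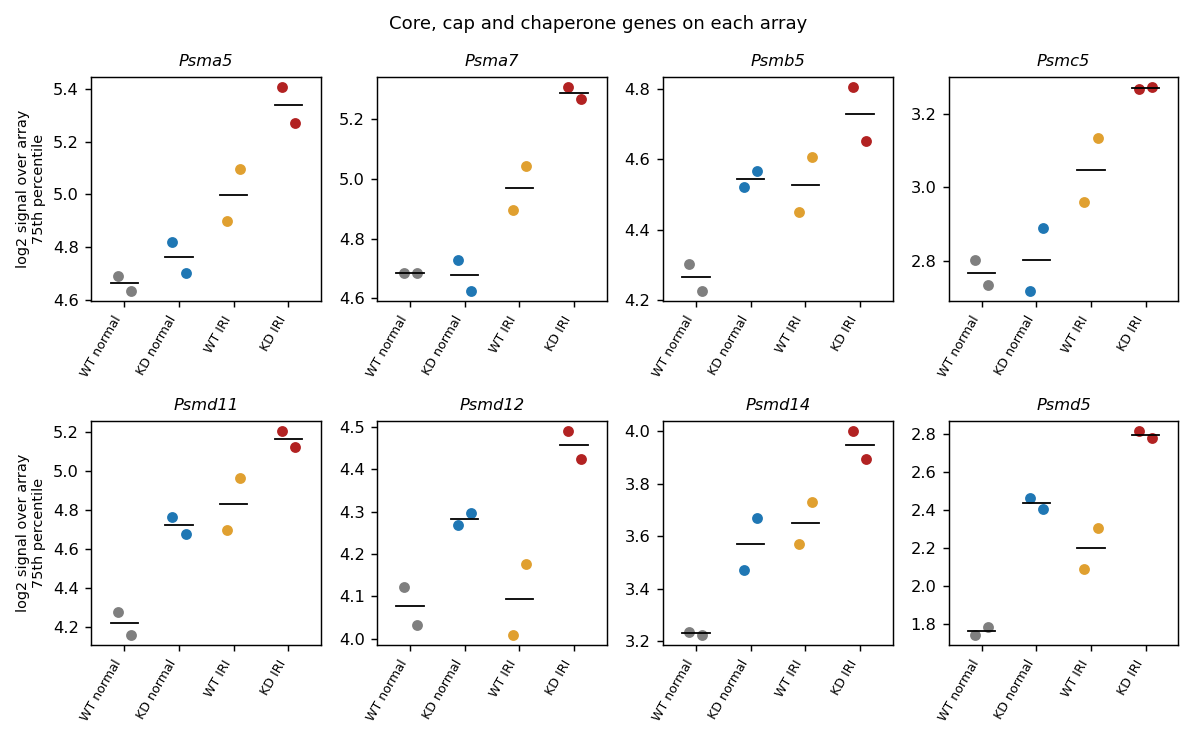
Log2 signal relative to the 75th percentile of the array for 3 core genes, 4 cap genes and the chaperone Psmd5, each dot an array and each line the mean of the 2 arrays of a group. The y axes differ between panels. Both KD IRI arrays are the highest of the 8 in every panel. The panels are a selection, and other core and cap genes, such as Psmb6, Psmb7 and Psmc2, do not have this order. The share of all genes with it was not counted.

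Of the 3 other activators or inhibitors, only Psme4 was called in any of the 4 comparisons. Psme4 encodes PA200, a nuclear activator. It was at 4.76 and 4.68 on the WT normal arrays, 5.04 and 5.15 on KD normal, 4.51 and 4.69 on WT IRI, and 4.73 and 4.63 on KD IRI. Only KD normal stood apart, above the other 3 groups. It rose in KD normal (0.37 ± 0.09, limma adjusted p = 0.038) and fell after injury of KD kidneys (-0.41 ± 0.09, adjusted p = 0.00638). Another of its 3 probes gave -0.016 in KD normal against WT normal, and quantile normalization turned the fall after injury to 0.014. Psme3, the nuclear activator PA28 gamma, and Psmf1, the inhibitor PI31, were called in none of the 4 comparisons. Their largest changes were 0.18 for Psme3 in KD normal and 0.17 for Psmf1 after injury in WT.

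The chaperones that build the core and the base gave calls in both directions. Psmd5, which holds base intermediates, was the only proteasome gene called in each of the 4 comparisons, which share arrays. It was at 1.74 and 1.79 on the WT normal arrays, 2.47 and 2.41 on KD normal, 2.09 and 2.31 on WT IRI, and 2.82 and 2.78 on KD IRI. No group overlapped another, and each KD group stood above both WT groups. It rose by 0.67 ± 0.09 with the knockdown in normal kidneys (1.59-fold, limma adjusted p = 0.00842) and by 0.60 ± 0.09 in injured ones (adjusted p = 0.0194). After injury it rose by 0.43 ± 0.09 in WT (adjusted p = 0.00764) and by 0.36 ± 0.09 in KD (adjusted p = 0.0115).

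Psmg1 to Psmg4 are the chaperones that guide the alpha ring. Psmg4 was at 1.03 and 0.97 on the WT normal arrays, 0.94 and 0.75 on KD normal, 1.48 and 1.43 on WT IRI, and 1.59 and 1.46 on KD IRI. It rose after injury in WT (0.46 ± 0.09, limma adjusted p = 0.0073) and in KD (0.68 ± 0.09, adjusted p = 0.000822). Psmg2 rose after injury by 0.22 in WT and 0.47 in KD, and it was 0.34 ± 0.07 higher in KD than in WT injured kidneys (adjusted p = 0.0408). The other probe of Psmg2 gave 0.059, 0.12 and 0.22 in these comparisons. Psmg3, which pairs with Psmg4, rose by 0.28 after injury in KD. Psmg1, which pairs with Psmg2, fell by 0.37 after injury in WT (adjusted p = 0.036) and was not called in KD (adjusted p = 0.922).

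Psmd9, a base chaperone, fell after injury in both genotypes. It was at 1.16 and 1.06 on the WT normal arrays, 1.12 and 1.01 on KD normal, 0.66 and 0.68 on WT IRI, and 0.77 and 0.66 on KD IRI. The normal groups overlapped, the injured groups overlapped, and the injured arrays lay below the normal ones. The change was -0.44 ± 0.09 in WT (limma adjusted p = 0.00592) and -0.35 ± 0.09 in KD (adjusted p = 0.0104). Psmd10, the oncoprotein gankyrin and also a base chaperone, was called in none of the comparisons.

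Genes that work with the proteasome were counted from a list of 37, of which 35 were measured; Paaf1 and Ddi2 had no probe. After injury 8 (22.9%) rose and 6 (17.1%) fell in WT, beside 20.5% and 25.4% of all genes. In KD 6 (17.1%) rose and 11 (31.4%) fell, beside 27.4% and 32%. Usp14, a deubiquitinase that docks on the cap, rose by 0.51 in WT and by 0.79 in KD, and it was 0.54 ± 0.10 higher in KD than in WT injured kidneys (limma adjusted p = 0.027). Fbxo7, a ligase subunit that binds the inhibitor Psmf1, fell by 1.04 in WT and 1.32 in KD. Ngly1, the deglycosylase that activates NRF1, fell in WT by 0.63. Sqstm1, the ubiquitin receptor p62 of autophagy, rose by 0.52 in WT.

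In normal kidneys 8 of these partners (22.9%) rose with the knockdown and 0 fell, beside 6.33% and 8.75% of all genes. Sel1l, of the ligase complex of endoplasmic reticulum degradation, rose by 0.97 ± 0.17, and Ubqln1, a shuttle of ubiquitinated proteins, by 0.82 ± 0.12 (limma adjusted p = 0.017 and 0.0094). In injured kidneys Usp14 was the only partner called between genotypes (2.86%, beside 3.66% of all genes called higher). Nfe2l1 was at 4.06 and 4.14 on the WT normal arrays and at 4.07 and 4.06 on KD normal, so these groups overlapped. Pomp, the maturation factor of the core, was at 5.23 and 5.11 on the WT normal arrays and at 5.41 and 5.41 on KD normal, which did not overlap and was not called.

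Of the 17 further probes available for proteasome genes, 4 had the opposite sign in KD normal against WT normal, and 1 of those, for Psme4, belonged to a called gene. In the other 3 comparisons 2, 2 and 1 had the opposite sign and none of these belonged to a called gene. The size could differ where the sign did not. For genes called after injury in KD, the brightest and the other probe gave 0.47 and 0.12 for Psmg2 and 0.37 and 0.11 for Psmd7. They gave 0.38 and 0.14 for Psmd14, 0.47 and 0.20 for Psmc5, 1.16 and 0.94 for Psmb8 and 0.21 and 0.17 for Psmb3. Other probes of Psmd2, Psmd9, Psme2 and Psme4 gave larger changes there. The annotation lists processed copies of Psma5, Psmb5, Psmb6 and Psmb7 elsewhere in the genome. The array files hold no probe sequences, and binding of their probes to such copies was not tested.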

How the data were processed

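Kidney RNA (300 ng per array) was hybridised in Cy3 to 8 single-colour Agilent arrays. The deposited spot values are linear intensity, background-subtracted and detrended by Feature Extraction 10.7.3.1, per the file headers. Control and outlier spots were left out, spots of a probe were averaged, and each array's 75th percentile was subtracted from the log2 intensity. A probe was kept if at least 1 group had it well above background on its 2 arrays (27624 of 41174). Symbols came from RefSeq accessions in a table whose assembly is later than the design's and which gave names and gene order. Before the filter, that table named 26682 of the 41174 probes (18213 symbols). Of the 20677 genes tested, 14144 have a symbol. The positions of the printed promoters are those of the RefSeq promoter table.

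Group means of all 8 arrays were fitted with limma 3.58.1 (R 4.3.3, package data.table, version 1.17.8; intensity trend; 4 residual degrees of freedom) and tested two-sided, after the script had been tested on simulated data. The number of arrays limits the precision. Named genes are Keap1, the catalytic, PA28, PA200, PI31 and PSMG genes. Added are, for each role and comparison, up to 2 largest rises and 2 largest falls past the threshold and the largest change not past it; of the outside lists, up to 2 rises and 2 falls. Other called members are given by their change. Nfe2l1, Pomp and the leukocyte genes were named after their values were seen. Members and lists were chosen with earlier results of these data known. Each of the 2 slides held the 4 arrays of 1 replicate number, per the file headers, and the labels tie no number to an animal. The correlation of same-numbered deviations between pairs of groups over all genes was 0.022 to 0.26. Alternatives were quantile normalization, normexp (offset 50, on the median spot signal, since no column holds the planned mean), the deposited log2 table of the authors, whose scaling is not stated in the sources used here, other filters, no trend, only the arrays compared, the slide block, the mean of probes, a fold minimum and leaving out each array.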

Additional observations from a re-analysis of the deposited data

Results flagged for a closer look

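The injury response of Psmb9 was 1.25 higher in KD than in WT on the log2 scale, and that of Psmb10 was 0.83 higher. Both were singled out because the test of the difference between the 2 responses passed in limma (adjusted p = 0.0472 and 0.0265). These 2 genes are 4.26% of the 47 proteasome genes, close to the 3.72% of all genes called higher in that test. In the deposited log2 values 0 of the 47 were called higher. Groups of 2 arrays are too small for a test of single outlying arrays.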

How the results depend on the processing

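With the replicate number, which is the slide, as a block, the 47 proteasome genes gave 14 higher and 3 lower calls after injury in WT, 4 and 4 in KD normal against WT normal, 2 and 0 in KD IRI against WT IRI, and 22 and 2 after injury in KD. It ended the calls of Psmb5 after injury in WT and of Psmd12 in injured kidneys, added 2 calls after injury in WT, and changed no other. Within the 2 slides the median of the 47 genes was 0.11 and 0.21 after injury in WT, 0.22 and 0.16 after injury in KD, and 0.089 and 0.069 in KD normal against WT normal. Of the named genes with a call, Psma8, which is dim, and Psme4 changed sign under an alternative.

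After injury in WT the higher calls numbered 33 under quantile normalization, 1 under normexp, 8 in the deposited log2 table, without the intensity trend and with arrays centred on the median of all genes (an alternative chosen after seeing the data), 7 with only the arrays compared and 2 with a log2 fold minimum of 0.5; the lower calls numbered 1 under quantile normalization, in the deposited table, without the trend and with only the arrays compared, and 0 with the fold minimum. In KD normal against WT normal the higher calls numbered 2 under quantile normalization, in the deposited table, without the trend and with the fold minimum, and 1 under normexp and without a filter on dim probes. In KD IRI against WT IRI they numbered 1 in the deposited table, without the trend, with the mean of probes and with the fold minimum, and 0 with only the arrays compared. After injury in KD the higher calls numbered 33 under quantile normalization and 16 under normexp, the fold minimum left 9 higher and 0 lower calls, and the lower calls numbered 1 under quantile normalization and 0 under normexp. The difference between responses gave 0 higher calls in the deposited table and without the trend and 1 without a filter.

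The median of the 47 was 0.34 (quantile) and 0.029 (normexp) after injury in WT. In KD normal it was 0.047 (quantile), -0.021 (normexp, reversed), 0.11 (mean of probes) and 0.14 (centred). It was 0.29 under normexp in KD IRI against WT IRI, 0.55 (quantile), 0.34 (normexp) and 0.15 (centred) after injury in KD, and 0.36 under normexp for the difference between responses.

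Leaving out each array in turn gave 3 to 15 higher and 0 to 3 lower calls after injury in WT, 0 to 6 and 0 to 4 in KD normal, 0 to 4 higher in KD IRI against WT IRI, 15 to 24 and 1 to 2 after injury in KD, and 0 to 3 higher for the difference between responses. The medians spanned 0.088 to 0.20, 0.092 to 0.11, 0.11 to 0.18, 0.17 to 0.26 and 0.031 to 0.13 in that order, and Psmb9 minus Psmb6 (injured minus normal) spanned -0.30 to 0.19, with 0.19 and 0.18 without WT normal replicate 1 and 2, 0.038 without WT IRI replicate 2 and 0.063 without KD IRI replicate 1.

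Signs turned for Keap1 after injury in WT (0.00071, quantile), Psme4 after injury in KD (0.014, quantile) and in injured kidneys (-0.013 without WT IRI replicate 1), Psmd1 after injury in WT (-0.023, normexp), and Psma8 in KD normal and after injury in KD (0.57 and -0.47, normexp). The cause was not tested. Only the arrays compared could not be run for the difference between responses, which needs all 4 groups.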

Other observations

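Psmc3ip and Psme3ip1 match the symbol rule without being subunits. Psmc3ip encodes a cofactor of meiotic recombination. It was at -0.91 and -1.17 on the WT normal arrays, -1.27 and -1.30 on KD normal, 0.09 and -0.42 on WT IRI, and 0.59 and 0.66 on KD IRI. The normal groups lay below the injured ones. It rose after injury by 0.88 in WT and 1.91 in KD (limma adjusted p = 0.00622 and 0.000132), and it was 0.78 higher in KD than in WT injured kidneys (adjusted p = 0.0443). Psme3ip1 was called in none of the comparisons, and its 8 arrays lay between 1.74 and 1.94.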
